A study of Drosophila melanogaster with 15 samples.

Results

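The transcripts described are 6 genes that mark neurons by their fast transmitter: ChAT, VAChT and ChT for acetylcholine, Gad1 and VGAT for GABA, and VGlut for glutamate. Every probe set that the platform annotation assigns to 1 of these symbols alone was taken, which gave 7 probe sets for the 6 genes, out of 13646 probe sets for 11981 genes. VGlut has 2 probe sets and the other genes have 1 each. RNA of fluorescent neurons sorted from third-instar larval brains was hybridised to 15 Affymetrix arrays, in 5 groups of 3. Of these groups 4 hold ventral lateral neurons (LNvs), pacemaker cells that release the neuropeptide Pigment-dispersing factor (Pdf). Wild-type LNvs (yw, with Pdf-Gal4 and UAS-GFP) were collected at zeitgeber time (ZT) 3 and at ZT15, which are 3 h after lights-on and 3 h after lights-off. LNvs of the clock mutants per0 (yw, per0; Pdf-RFP) and cyc0 (yw, Pdf-RFP, cyc0) were collected at ZT15. The comparison neurons, also from ZT15, carried elav-Gal4 with UAS-GFP, a driver that labels neurons in general. The tissue label of those arrays reads as LNvs, whereas their titles and genotype name elav neurons, which was followed here. The mutants carry RFP where wild-type LNvs carry GFP, so genotype and reporter cannot be told apart when a mutant is set against wild type.

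In the fly brain, acetylcholine is the main fast excitatory transmitter, GABA is the main fast inhibitory one, and glutamate is used by motor neurons and by many central neurons. A neuron that releases one of them needs an enzyme or a supply of the transmitter and a transporter that loads it into synaptic vesicles. Choline acetyltransferase (ChAT) makes acetylcholine, VAChT loads it into vesicles, and ChT takes choline back up from the synapse. Gad1, a glutamic acid decarboxylase, makes GABA from glutamate, VGAT loads GABA into vesicles, and VGlut loads glutamate. The VAChT gene lies inside the ChAT gene, and both are read from a shared start, an arrangement known in flies and other animals. LNvs are known chiefly as peptide-releasing cells, and in the larva they receive cholinergic input from the photoreceptors of the larval eye.

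Values are log2 GCRMA values, in which probe sets below background gather near the lower end of the scale. A log2 value of 4 serves here as a working level for a measurable signal. It is not a measured detection limit. Between 3520 and 5436 of 18769 probe sets reached it on an array. The sorted cells matched their names for Pdf, at 12.37 to 13.07 on the 12 LNv arrays and 3.06 to 4.49 on the elav arrays, although the Pdf promoter also drove the sort reporter.

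ChAT was at or near background in the LNvs and well above it in the elav neurons. Its log2 values on replicates 1, 2 and 3 were 6.48, 6.07 and 6.88 in elav neurons. In wild-type LNvs they were 2.85, 2.85 and 2.79 at ZT3, and 4.22, 2.85 and 2.85 at ZT15. In per0 LNvs they were 2.85, 2.68 and 3.51, and in cyc0 LNvs 3.24, 3.28 and 4.77. Every elav array thus lay above every LNv array, and 2 of the 12 LNv arrays, 1 wild-type and 1 cyc0, reached the working level.

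VAChT, the vesicular transporter encoded inside ChAT, followed the same order of elav neurons against LNvs. It lay at 6.99, 5.48 and 6.74 in elav neurons. In wild-type LNvs the values were 2.43, 2.40 and 2.40 at ZT3, and 4.88, 2.40 and 2.43 at ZT15. The per0 values were 2.40, 2.53 and 3.90, and the cyc0 values 2.43, 3.52 and 2.40. Of the 15 arrays 8 lay within 0.1 of the lowest VAChT value, all of them LNv arrays, and only replicate 1 of wild-type LNvs at ZT15 reached the working level among LNvs.

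ChT, the choline transporter, gave no such separation. In elav neurons it lay at 2.57, 3.98 and 5.05, a wider range than over all 12 LNv arrays. In LNvs it lay at 2.56, 2.55 and 3.73 at ZT3, 2.56, 2.54 and 2.54 at ZT15, 2.76, 2.56 and 3.82 in per0, and 2.54, 4.44 and 2.55 in cyc0. The elav group overlapped each LNv group except wild-type LNvs at ZT15. In all 5 groups the array with the highest ChT value was the one with the most probe sets at the working level, which in elav neurons were 3520, 3957 and 5069 on replicates 1, 2 and 3. The part of that array difference in the ChT values was not tested.

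**Figure D1:**
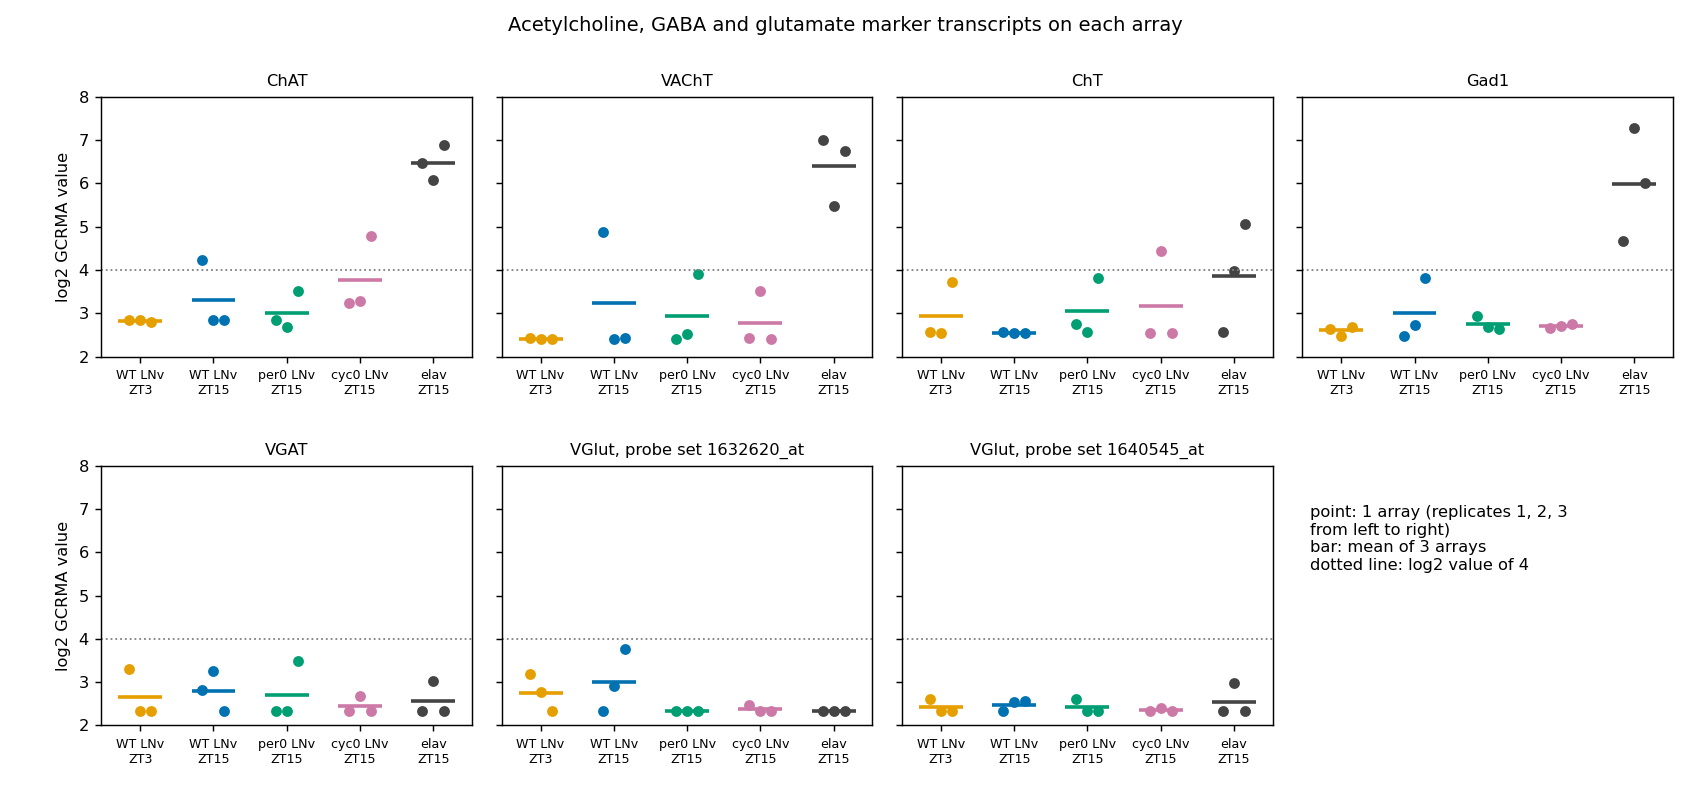
Log2 GCRMA values (vertical axis) of the 7 probe sets by group, with 1 point per array, a bar at the mean of 3 arrays and a dotted line at the working level of 4. ChAT, VAChT and Gad1 lie above the line on all 3 elav arrays and below it on nearly all LNv arrays, whereas VGAT and VGlut lie below it on all 15.

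Gad1, the GABA-synthesis enzyme, was also found above the working level in elav neurons alone. Its values there were 4.67, 7.28 and 6.01. In LNvs they were 2.65, 2.48 and 2.68 at ZT3, 2.47, 2.73 and 3.81 at ZT15, 2.93, 2.69 and 2.64 in per0, and 2.67, 2.71 and 2.74 in cyc0. No LNv array reached the working level, and the highest, replicate 3 of wild-type LNvs at ZT15, stayed under the lowest elav array.

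VGAT, the vesicular GABA transporter, was below the working level on all 15 arrays, elav neurons included. It lay at 2.32, 3.02 and 2.32 in elav neurons and between 2.32 and 3.48 on the LNv arrays. The probe set therefore gave no level against which LNvs could be compared. The same held for VGlut. Its probe set with the higher mean lay at 2.33 on each elav array and on each per0 array, and at 2.48, 2.33 and 2.33 in cyc0. In wild-type LNvs it lay at 3.18, 2.76 and 2.33 at ZT3 and 2.33, 2.91 and 3.77 at ZT15. The highest values of that probe set were thus on wild-type LNv arrays, but the other VGlut probe set lay at 2.33 to 2.61 on the LNv arrays and 2.34, 2.98 and 2.33 on the elav arrays. Across the arrays that other probe set showed no such rise in wild-type LNvs.

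The comparison with elav neurons asks which transcripts set LNvs apart from neurons in general. ChAT, VAChT and Gad1 were lower in each of the 4 LNv groups, and all 12 of these differences passed an adjusted p of 0.05. At ZT15, ChAT averaged 3.31 ± 0.79 (SD, n = 3) in wild-type LNvs and 6.48 ± 0.40 among elav neurons. The log2 difference was -3.17, with an SE of 0.56 and an adjusted p of 0.00158 from limma's moderated test. VAChT averaged 3.24 ± 1.43 against 6.41 ± 0.81, a log2 difference of -3.17 (SE 0.68, adjusted p = 0.00532). Gad1 averaged 3.003 ± 0.707 against 5.99 ± 1.31, a log2 difference of -2.98 (SE 0.59, adjusted p = 0.00313). In that comparison 5.25% of the 5829 tested probe sets were lower in LNvs.

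The other LNv groups gave differences from elav neurons of like size, with the same 3 elav arrays in each comparison. At ZT3, where the hour of collection differs as well, wild-type LNvs differed by -3.65 for ChAT, -3.997 for VAChT and -3.38 for Gad1 (4.13% of probe sets were lower). In per0 LNvs the log2 differences were -3.46, -3.47 and -3.23 in the same order (3.33% lower). In cyc0 LNvs they were -2.71, -3.62 and -3.28 (2.2% lower). Both mutants also differ from the elav neurons in genotype and reporter. Over the 12 values the adjusted p ran from 0.00052 to 0.00689. Where all 3 arrays of an LNv group lay below the working level, the linear ratio was taken to that level, since a value near background has no measured size. The elav mean stood 5.58-fold above the level for ChAT, which applies at ZT3 and in per0. It stood 5.30-fold above it for VAChT (ZT3, per0 and cyc0) and 3.96-fold for Gad1 (all 4 LNv groups). These ratios leave out the spread between arrays and rest on a level that is not a detection limit, so they are not lower bounds.

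The 3 tested genes entered the test because they reached the working level on the elav arrays, since a probe set needed that level on at least 3 arrays, and no more than 2 LNv arrays did so for any of them. Their being tested and their being lower in LNvs are thus not separate facts. With no filter on level, where all 7 probe sets were tested, the same 3 genes passed in all 4 comparisons, at adjusted p between 0.00231 and 0.0174 for ChAT, 0.013 and 0.036 for VAChT, and 0.00747 and 0.0134 for Gad1. ChT, VGAT and both VGlut probe sets did not pass in any of the 8 comparisons of that fit, with log2 differences of -1.32 to 0.63 for ChT and -0.35 to 0.24 for VGAT. The smallest adjusted p among them was 0.373, for VGlut in wild-type LNvs at ZT15 against elav neurons. In sorted pools, fewer cells that carry a transcript and less of it per cell cannot be told apart. An elav level is thus the mean over neurons of many transmitter types.

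The comparisons between LNv groups ask whether these transcripts vary with the time of day or with the state of the clock. None of the 3 tested genes passed in any of them. From ZT3 to ZT15 in wild-type LNvs the log2 differences were 0.48 for ChAT (95% interval -0.70 to 1.65), 0.83 for VAChT (-0.61 to 2.27) and 0.40 for Gad1 (-0.84 to 1.65). In that comparison 0.789% of probe sets passed. For per0 minus wild type they were -0.30 (-1.47 to 0.88), -0.30 (-1.74 to 1.14) and -0.25 (-1.49 to 1.00), where 1.18% of probe sets passed.

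For cyc0 minus wild type the log2 differences were 0.46 for ChAT (-0.72 to 1.63), -0.45 for VAChT (-1.89 to 0.99) and -0.30 for Gad1 (-1.54 to 0.95), with 2.9% of probe sets passing. For cyc0 minus per0, which share the RFP reporter, they were 0.75 (-0.42 to 1.93), -0.15 (-1.59 to 1.29) and -0.05 (-1.29 to 1.20), with 0.789% passing. The adjusted p over these 12 values ran from 0.704 to 0.995, and the arrays of the groups overlapped in each. Over these genes and comparisons the intervals reach as far as -1.89 and 2.27. With 3 arrays per group, differences inside the interval of a given gene and comparison were not excluded. With LNv values near background a change could also be understated.

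**Figure D2:**
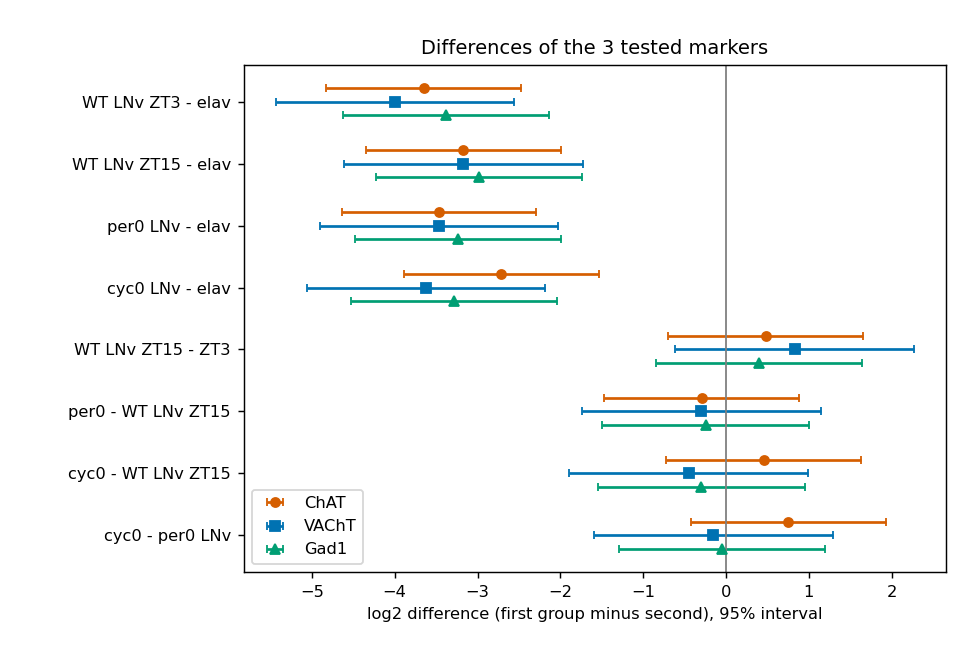
Log2 differences (horizontal axis, first group minus second) of ChAT, VAChT and Gad1 in the 8 comparisons, with unadjusted 95% intervals from the moderated standard errors. The 12 differences from elav neurons lie between -3.997 and -2.71 with intervals that stay below 0, and the 12 intervals between LNv groups all include 0.

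Ordered by group mean, ChAT ran from elav neurons (6.48) through cyc0 (3.77), wild type at ZT15 (3.31) and per0 (3.01) to wild type at ZT3 (2.83). VAChT ran from elav neurons (6.41) through wild type at ZT15 (3.24), per0 (2.94) and cyc0 (2.79) to wild type at ZT3 (2.41). Gad1 ran from elav neurons (5.99) through wild type at ZT15 (3.003), per0 (2.75) and cyc0 (2.71) to wild type at ZT3 (2.60). Only the step from elav neurons to the highest LNv group exceeded the spread between arrays, and the order among LNv groups was not resolved. The mutants at ZT15 were not tested against wild type at ZT3.

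The higher LNv values of the cholinergic markers lay on arrays that differed in what else they showed. Replicate 1 of wild-type LNvs at ZT15 held both ChAT (4.22) and VAChT (4.88) above the working level, with ChT at 2.56 and Gad1 at 2.47. Replicate 3 of wild-type LNvs at ZT3 held ChT at 3.73, with ChAT at 2.79 and VAChT at 2.40. Replicate 3 of cyc0 held ChAT at 4.77 but VAChT at 2.40. Replicate 2 of cyc0 held ChT at 4.44 and VAChT at 3.52, and replicate 3 of per0 held ChAT, VAChT and ChT at 3.51, 3.90 and 3.82. Those last 2 arrays also had the most probe sets at the working level, 5110 and 5436, and the part of this in their values was not tested.

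Over all 15 arrays the Pearson correlation of ChAT with VAChT was 0.90, that of ChAT with Gad1 0.80 and that of VAChT with Gad1 0.72. These values largely restate the gap between elav neurons and LNvs. Within the 12 LNv arrays, which mix genotypes and times and sit near background, they were 0.49, -0.23 and -0.31. ChAT and VAChT overlap in the RefSeq annotation of Release 6, both on chromosome arm 3R. Whether their probe sets read any shared transcript was not tested, since probe sequences were not used here.

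**Figure D3:**
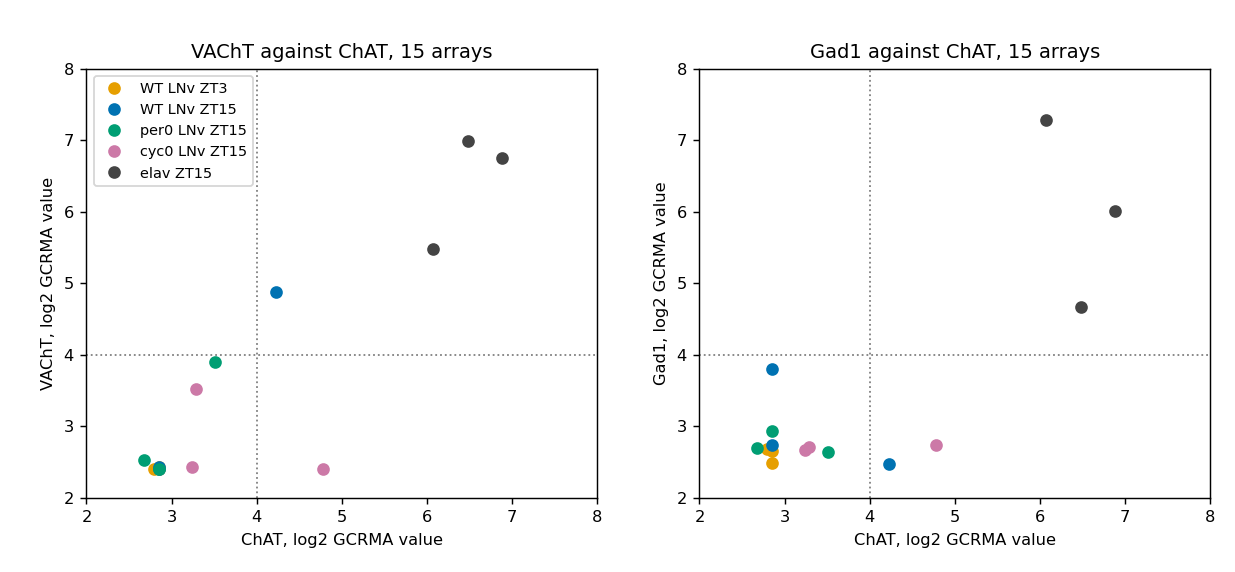
Log2 GCRMA values of VAChT (left, vertical axis) and Gad1 (right, vertical axis) against ChAT (horizontal axis), with 1 point per array coloured by group and dotted lines at the working level of 4. The 3 elav arrays stand apart at the upper right of both panels, and the 1 LNv array above 4 for both ChAT and VAChT is replicate 1 of wild-type LNvs at ZT15.

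Other markers moved with the same contrast. All 6 neuroblast and newborn-neuron markers (wor, mira, insc, ase, dpn and pros) were on the array. Their mean log2 level was 5.85 to 7.14 on the elav arrays, with 4 to 6 of them at the working level. On the LNv arrays their mean was 2.83 to 4.22, with 1 to 4 at that level. Of the 5 that were tested, 5 were lower in wild-type LNvs at each time and 4 in each mutant. Over all tested probe sets 5.25%, 4.13%, 3.33% and 2.2% were lower in wild type at ZT15 and ZT3, per0 and cyc0. As with the transmitter markers, being tested and being lower are not separate for some of these, since mira reached the working level on the elav arrays alone and wor on those and 1 per0 array. The counts are thus a description. For example, pros, which encodes a factor of newborn neurons, averaged 4.95 ± 1.45 in wild-type LNvs at ZT15 and 10.12 ± 0.54 in elav neurons (adjusted p = 0.000607). The part of this difference in the values of the transmitter markers was not tested.

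Markers of mature neurons went both ways. The mean of 5 pan-neuronal genes was 4.95 to 5.82 on the elav arrays and 5.46 to 7.87 on the LNv arrays. Of the 4 tested, 2, 2, 1 and 1 were higher in wild type at ZT15, wild type at ZT3, per0 and cyc0 than in elav neurons. Over all probe sets 7.26%, 7.07%, 6.91% and 3.41% were higher. Of the 4, 1, 0, 1 and 0 were lower, where 5.25%, 4.13%, 3.33% and 2.2% of all probe sets were. The higher genes were futsch and, in wild type, nSyb, which is counted again with the vesicle release genes, where its lost calls are given. The lower gene was elav itself, in wild-type LNvs at ZT15 (log2 difference -3.18, adjusted p = 0.00191) and in per0 (-3.03, adjusted p = 0.00306). The gene futsch, which encodes a microtubule-associated protein, was higher in all 4, by 5.09 at ZT15 (adjusted p = 0.000954). These calls rested on 1 of its 3 probe sets, since the others reached the working level on too few arrays to be tested. The cyc0 call of futsch was lost with no filter and in the fit to the 6 arrays compared (adjusted p up to 0.0754). The mean of 5 glial genes was 3.95 to 5.65 on the elav arrays and 3.24 to 5.60 on the LNv arrays. Of the 4 glial genes tested, Gs2 was higher in wild-type LNvs at both times, as given with the recycling genes. For the glial calls the shares over all probe sets were those given for the pan-neuronal genes. The sodium pump subunit gene nrv2 was lower in wild type at ZT15 (-2.21, adjusted p = 0.0222) and in per0 (-1.92, adjusted p = 0.049), calls that were lost without 3 and 11 of the arrays in turn (adjusted p up to 0.115 and 0.246). The glial regulator repo reached 5.87 and 7.37 on replicates 1 and 3 of wild-type LNvs at ZT3, but did not pass there (1.61, adjusted p = 0.21). On the same arrays the glial gene moody lay at 2.30 and 5.03, and wrapper at 2.55 and 2.34. Gs2 lay at 8.21 and 7.12 there, and nrv2 at 6.23 and 6.15. ChAT, VAChT and Gad1 were all at or under 2.85 on these arrays.

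By Pearson correlation over the 15 arrays, the genes most like ChAT were CG14989 (0.94), ct (0.93) and Lim1 (0.91). Those most like VAChT were ChAT itself (0.90), pdm3 (0.90) and Gprk2 (0.90), and those most like Gad1 were HLH4C, slou and lz (0.93 each). Of these, ct, Lim1, pdm3 and slou encode homeodomain proteins, HLH4C a basic helix-loop-helix protein, lz a Runt-domain factor and Gprk2 a kinase of G-protein-coupled receptors. Each of these genes had its lowest elav array above its highest LNv array, as ChAT, VAChT and Gad1 did. Since they were chosen by correlation over all 15 arrays, this separation largely follows from the choice. The share of all probe sets that separate in this way was not counted. CG14989 overlaps Gad1 in the RefSeq annotation, and it correlated with Gad1 at 0.83. Within the 12 LNv arrays the correlations of CG14989, ct and Lim1 with ChAT were 0.70, 0.71 and 0.57. Those of ChAT, pdm3 and Gprk2 with VAChT were 0.49, 0.33 and 0.65 there, and those of HLH4C, slou and lz with Gad1 were 0.16, 0.02 and -0.12.

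Among genes listed for clearing or recycling the same transmitters, those higher in LNvs were glutamine synthetases and glutamate oxaloacetate transaminases. Whether these enzymes serve transmitter recycling in LNvs was not tested. Of 12 listed, 11 were on the array and 9 were tested, and in each LNv group 3 of the 9 were higher than in elav neurons and none was lower. The share of all probe sets called higher was 7.26%, 7.07%, 6.91% and 3.41% for wild type at ZT15 and at ZT3, per0 and cyc0. The share called lower was 5.25%, 4.13%, 3.33% and 2.2%, so none lower of 9 is near the background. The list medians were 1.35, 1.34, 1.12 and 1.10, against 0.11, 0.16, 0.32 and 0.28 over all tested probe sets.

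Gs1, a glutamine synthetase, lay at 10.28, 10.77 and 10.62 in wild-type LNvs at ZT15 and 7.74, 7.78 and 7.33 in elav neurons. That is a log2 difference of 2.94 (SE 0.46, adjusted p = 0.000745), and Gs1 was higher in the other 3 LNv groups too, by 2.05 to 2.32. The cyc0 call of Gs1 was lost in the fit to the 6 arrays compared (adjusted p = 0.0693). Got1, a glutamate oxaloacetate transaminase, lay at 3.71, 4.04 and 3.87 in elav neurons and averaged 6.74, 6.25, 7.88 and 6.95 in wild type at ZT3 and ZT15, per0 and cyc0. It passed in each (adjusted p = 0.00438, 0.0121, 0.000337 and 0.004), although at ZT15 it did not pass without replicate 1 of wild-type LNvs (adjusted p = 0.0557).

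Got2, the other transaminase of the pair, passed in per0 (log2 difference 3.33, adjusted p = 0.004) and cyc0 (4.43, adjusted p = 0.000746). In wild type its differences were 2.09 at ZT3 (adjusted p = 0.0515) and 1.72 at ZT15 (adjusted p = 0.0991). Gs2, the other glutamine synthetase and a glial marker in flies, passed in wild type at ZT3 (2.67, adjusted p = 0.00846) and ZT15 (2.03, adjusted p = 0.0346). Its differences in per0 and cyc0 were -0.96 and -0.30 (adjusted p = 0.342 and 0.845). Gs2 was also lower in per0 and cyc0 than in wild type at ZT15, by log2 differences of -2.995 and -2.33 (adjusted p = 0.0225 and 0.0448), whereas Got2 was higher in cyc0 than in wild type (2.71, adjusted p = 0.0339). That Got2 call was lost without any 1 of the wild-type arrays at ZT15 or replicate 1 or 3 of cyc0 (adjusted p up to 0.123). The Gs2 call at ZT15 against elav neurons was lost without replicate 2 or 3 of wild-type LNvs or any of the elav arrays (adjusted p up to 0.160), and those of per0 and cyc0 against wild type were lost without 4 and 11 of the 15 arrays in turn (up to 0.117 and 0.192).

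Among the rest, Ace, the acetylcholinesterase that breaks down acetylcholine, averaged 4.15 in wild-type LNvs at ZT15 and 5.08 in elav neurons (log2 difference -0.93, adjusted p = 0.588), with wide spread in both. Eaat2, a high-affinity transporter of acidic amino acids, differed by 1.34 (adjusted p = 0.0662). The GABA transporter gene Gat and the GABA transaminase gene Gabat reached the working level on too few arrays to be tested. Gat reached 4.83 on replicate 1 of wild-type LNvs at ZT3 and 4.04 on replicate 2 at ZT15, and Gabat stayed at or under 3.93.

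Receptors for acetylcholine, GABA and glutamate could be compared only in part. Of 25 listed, 22 were on the array and 12 were tested, and 1, 3, 1 and 1 were higher in wild type at ZT15, wild type at ZT3, per0 and cyc0 than in elav neurons, with none lower. Over all probe sets 7.26%, 7.07%, 6.91% and 3.41% were higher and 5.25%, 4.13%, 3.33% and 2.2% lower, so that 1 higher of 12 is near the background, and none lower of 12 is too. The nicotinic receptor subunit gene nAChRbeta1 lay at 8.25, 8.84 and 7.81 in wild-type LNvs at ZT15 and 4.41, 6.77 and 7.19 in elav neurons (log2 difference 2.18, adjusted p = 0.0352). Its other probe set differed by 2.63 (adjusted p = 0.00946) there, but by 0.93 in per0 and 0.80 in cyc0, where it did not pass. At ZT3 the genes that passed were nAChRbeta2 (2.82, adjusted p = 0.026), the NMDA receptor gene Nmdar1 (2.05, adjusted p = 0.035) and the GABA-A receptor gene Rdl (2.54, adjusted p = 0.04). Each receptor call was lost with some arrays left out. For nAChRbeta1 at ZT15 these were each wild-type array and replicate 1 of elav neurons (adjusted p up to 0.167), for nAChRbeta2 replicates 1 and 2 of wild type at ZT3 and of elav neurons (up to 0.108), and for Nmdar1 and Rdl 5 and 8 of the arrays in turn (up to 0.114 and 0.188). In per0 the nAChRbeta1 call was lost without replicate 1 or 3 of per0 or replicate 1 of elav neurons, and in cyc0 without replicate 1 of either group. The list medians were 0.77, 0.41, -0.07 and 0.33 in the same order of groups, against 0.11, 0.16, 0.32 and 0.28 over all probe sets, so the per0 median lay under that of all probe sets.

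**Figure D4:**
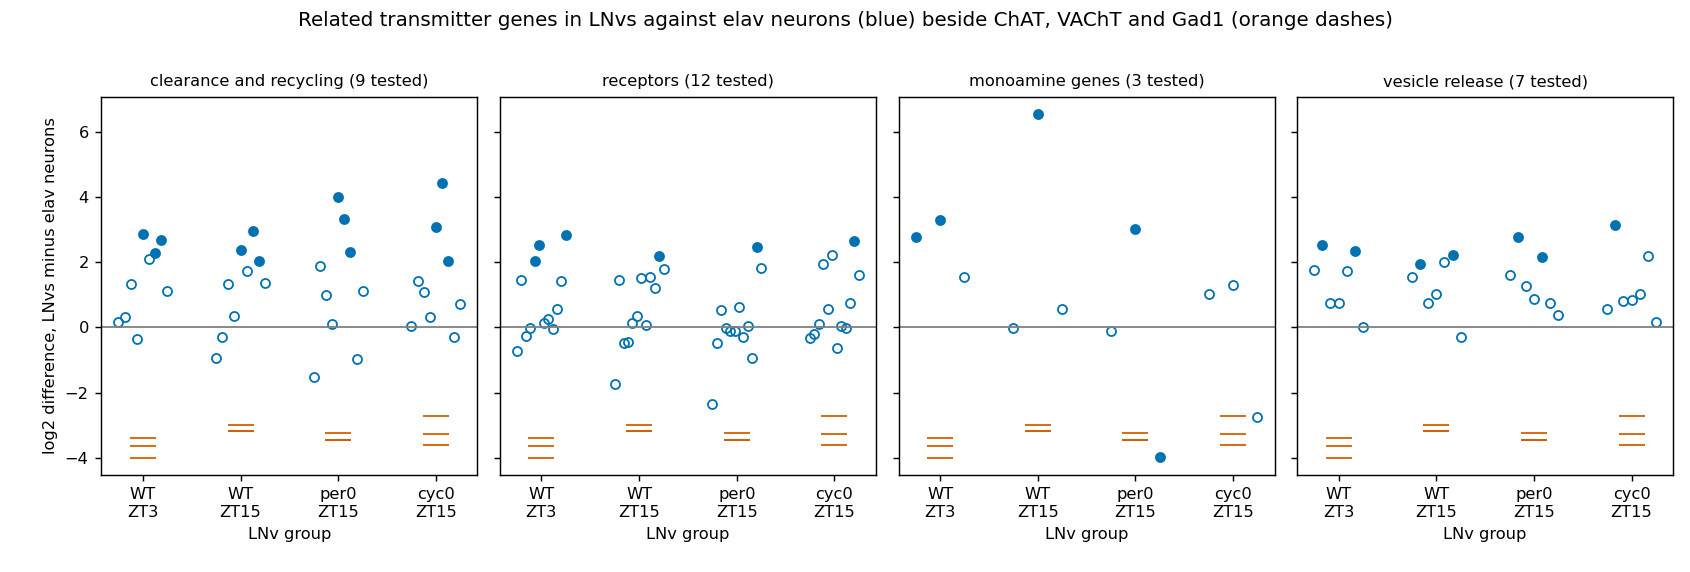
Log2 differences from elav neurons (vertical axis) in the 4 LNv groups for genes of clearance and recycling, receptors, monoamine genes and vesicle release, with 1 circle per tested gene, filled where the adjusted p is under 0.05. Orange dashes repeat ChAT, VAChT and Gad1, which lie between -3.997 and -2.71, below every tested clearance, receptor and release gene.

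Vesicle release genes are used by neurons whatever their transmitter. Of 14 listed, 9 were on the array and 7 were tested, with 2, 2, 2 and 1 higher in wild type at ZT15, wild type at ZT3, per0 and cyc0 and none lower, where the shares over all probe sets were those just given for the receptors and none lower of 7 is near the background. The genes brp and Rop, which encode an active-zone protein and a syntaxin-binding protein, were not tested and lay near background in elav neurons too, at 2.92 to 2.98 and at 2.42 to 2.43. On the LNv arrays brp lay at 2.91 to 3.30 except on replicates 2 and 3 of wild type at ZT15, at 8.50 and 4.09. Rab3, a small GTPase of synaptic vesicles, was higher in all 4, by log2 differences of 1.94, 2.53, 2.78 and 3.14. The vesicle SNARE gene nSyb was higher in wild type at ZT15 and ZT3, by 2.22 and 2.36 (adjusted p = 0.0478 and 0.04). In per0 the complexin gene cpx passed at 2.17, but its other probe set differed by -0.21 (adjusted p = 0.915). The nSyb calls were lost without 10 and 8 of the arrays in turn (adjusted p up to 0.179 and 0.145), and that of cpx without 11 (up to 0.183). Rab3 did not pass at ZT15 without replicate 1 or 3 of wild-type LNvs or any elav array (up to 0.130), nor at ZT3 without replicate 2 of wild type (0.0596).

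Of the monoamine genes, 10 were listed, 9 were on the array and 3 were tested. Tbh, which makes octopamine, was higher than in elav neurons in wild type at ZT15 and ZT3 and in per0, Ddc, the dopa decarboxylase gene, was higher at ZT3, and the vesicular monoamine transporter gene Vmat was lower in per0. That call of Vmat rested on 1 probe set, and another differed by -0.25 (adjusted p = 0.875). It was lost without 9 of the arrays in turn (adjusted p up to 0.156), and the Tbh call in per0 without replicate 1 or 3 of per0 or replicate 2 of elav neurons (up to 0.121). The shares over all probe sets were those given for the receptors. Against wild type at ZT15, Tbh was lower in cyc0 (log2 difference -5.24, adjusted p = 0.00107) and in per0 (-3.51, adjusted p = 0.033). That per0 call was lost without 5 of the arrays in turn (up to 0.138). The listed genes Tdc2 and ple were not tested, and lay at 2.34 to 2.35 and 2.32 to 2.35 on the wild-type and per0 LNv arrays. Tdc2 lay at 3.03, 2.34 and 2.89 in cyc0 and 2.69, 3.50 and 2.73 in elav neurons. For ple the values were 2.84, 2.32 and 2.34 in cyc0 and 2.32 on each elav array.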

How the data were processed

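The authors deposited 1 table of log2 values for 15 arrays. Per the submitters' processing notes these are GCRMA values, which correct each probe for a background estimated from its sequence, combine the probes of a set and bring the arrays to a common scale. Its version and any later filter were not given in the sources used here. Per the labels' protocols, brains were dissociated with collagenase and dispase, sorted cells were lysed in extraction buffer, and mRNA was amplified to biotin-labelled cDNA with the NuGen WT-Ovation kit. Groups came from sample titles, which call the 3 arrays of a group biological replicates.

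The table held 18869 probe sets, 100 of them controls, which were dropped. The remainder comprised 13646 probe sets with a single symbol, 402 with several and 4721 unnamed here. No symbol differed from the current gene table, and 103 probe sets had an identifier outside it. The 5829 probe sets that reached log2 4 on at least 3 arrays were fitted over all 15 arrays with 1 mean per group, using limma 3.58.1 (lmFit, eBayes) under R 4.3.3, with prior degrees of freedom of 7.46 and a median SE of 0.66. Two-sided p-values received Benjamini-Hochberg adjustment over all tested probe sets within a comparison. The number of arrays limits the precision. The fit was tested on simulated data. A gene was represented by its probe set with the highest mean. The text names the 6 members whatever their values, up to 3 genes with the smallest p per list among those that passed, the 3 genes most correlated with each tested member, and Pdf and elav. Ace, Eaat2, Gat, Gabat, repo, moody, wrapper, brp, Rop, Tdc2, ple and some further values of list members were named after their values were seen. The members and lists were chosen with earlier results of these data known. The alternatives were other filters, scalings, priors, array weights, 6-array fits, 1 probe set per gene, a replicate block and leaving out each array. No promoter or protein sequences were used.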

Additional observations from a re-analysis of the deposited data

How the results depend on the processing

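ChAT, VAChT and Gad1 stayed lower in LNvs than in elav neurons, past an adjusted p of 0.05, in all 100 values under other settings that tested them and in all 180 values with 1 array left out. Log2 differences ran from -4.23 to -2.65 and from -4.46 to -2.34, with the largest adjusted p at 0.0499 (VAChT at ZT15, fit to the 6 arrays compared). These values are not separate tests. Leaving out an array outside a comparison left its log2 difference unchanged and moved only the SE and adjusted p. Some other settings, such as no filter and the replicate block, left the difference unchanged too. With 1 array left out, the filter was still set on all 15 arrays. The stricter filter, log2 of at least 6 on at least 3 arrays, tested ChAT alone of the 6 genes, so that the count lower in LNvs fell from 3 to 1 in all 4 comparisons. Quantile normalization moved the median of all probe sets for per0 minus elav neurons from 0.32 to 0.10. Between LNv groups no value passed under any alternative, and the sign turned with 1 array left out. For per0 minus wild type ChAT ran from -0.54 to 0.16, VAChT from -0.78 to 0.53 and Gad1 from -0.51 to 0.15. For cyc0 minus wild type they ran from -0.048 to 0.91, -0.87 to 0.37 and -0.56 to 0.10, and for cyc0 minus per0 VAChT ran from -0.52 to 0.32 and Gad1 from -0.10 to 0.039. The arrays that turned these signs included replicate 1 of wild-type LNvs at ZT15 (ChAT, VAChT), replicate 3 of that group (Gad1) and replicate 3 of cyc0 (ChAT). The replicate block changed no call of the 6 genes, with 3 called in each elav comparison, and 713 probe sets passed with it in place of 729 for wild type at ZT15. Same-numbered arrays of different groups correlated over 0.1 in 5 of 30 pairs (median 0.015), and different-numbered ones in 5 of 60 (median -0.011). Of the 15 arrays 7 lay closest to their own number. These values do not settle whether a number marks a pair. The numbers were not taken as pairs because the labels do not say that they mark a shared day or litter. The array weights stopped before full convergence. Of 25 calls of clearance, receptor and release genes against elav neurons, 11 held under every alternative, among them Gs1 at ZT15 and Got1 at ZT3 and in per0 and cyc0, and 14 were lost under at least 1 (largest adjusted p = 0.188), among them nSyb, cpx and every receptor call. VGlut, VGAT and ChT could not be fitted with the filter, because they reached the working level on fewer than 3 arrays or on none.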
